A study of Homo sapiens with 15 samples.

Results

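Transcript levels of 30 genes of cholesterol synthesis and its control by the transcription factor SREBP2 were measured after transfection with reporter mRNA in HepG2, a cell line from a human liver carcinoma. The genes were taken by symbol from a list of the pathway: 20 encode enzymes of the pathway from acetyl-CoA to cholesterol, 6 encode SREBP2 and the proteins that control it, and 4 act in sterol transport or esterification. All 30 were among the 41412 rows of the count matrix, and all 30 passed the filter on low counts that left 18380 genes. Wild-type cells, grown with fetal bovine serum, fell into 5 groups of 3 biological replicates. Of these, 4 groups received 1 µg of mRNA for enhanced green fluorescent protein in the reagent NanoLNP: mRNA that was non-cloaked, or weak-cloaked (CR-3 at 0.1 M and 25 °C for 0.5 h), medium-cloaked (CR-3 at 0.5 M and 30 °C for 1 h) or strong-cloaked (CR-3 at 1 M and 37 °C for 2 h). The remaining group was untransfected, all cells were harvested at 48 h, and with no particle-only group the effects of particle and mRNA cannot be told apart. The stated purpose of the series was to see how cloaking of the mRNA affects gene expression, and the reporter's own level was not analysed here.

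Cholesterol is made in the endoplasmic reticulum by way of mevalonate, farnesyl diphosphate, squalene and lanosterol, and the liver is a main site of its synthesis. SREBP2, encoded by SREBF2, is held in the endoplasmic reticulum by SCAP and the INSIG proteins when sterols are plentiful. When sterols fall, SCAP carries SREBP2 to the Golgi, where the proteases of MBTPS1 and MBTPS2 release its active part, which raises transcription of most genes of the pathway, of INSIG1 and of SREBF2 itself. Most of the genes examined here are textbook targets of this loop, which works through sterol regulatory elements next to NF-Y and Sp1 boxes.

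The promoters of 4 members are shown: SREBF2 and INSIG1, the genes of the factor and of its inhibitor, because each held a match to a sterol regulatory element or its E-box form, and MSMO1 and EBP, enzymes whose transcripts were among the most changed, because they held several NF-Y boxes and neither of those matches. Each run holds 250 bases before to 50 bases after the annotated start on the gene's strand (RefSeq, GRCh38.p14), at chr22:41832855-41833154, chr7:155297628-155297927, chr4:165327419-165327718 and chrX:48521558-48521857, all on the + strand. Capitals mark matches, on either strand, to the core TCACCCCAC of the classical sterol regulatory element, the E-box form TCACGTGA, the NF-Y box CCAAT and the Sp1 box GGGCGG.
SREBF2: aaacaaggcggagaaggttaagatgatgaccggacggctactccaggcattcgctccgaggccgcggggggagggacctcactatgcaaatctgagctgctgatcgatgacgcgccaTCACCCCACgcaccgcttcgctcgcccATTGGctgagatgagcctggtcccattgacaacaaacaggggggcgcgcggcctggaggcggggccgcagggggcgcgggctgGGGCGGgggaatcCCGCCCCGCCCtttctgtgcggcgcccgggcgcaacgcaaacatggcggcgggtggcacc
INSIG1: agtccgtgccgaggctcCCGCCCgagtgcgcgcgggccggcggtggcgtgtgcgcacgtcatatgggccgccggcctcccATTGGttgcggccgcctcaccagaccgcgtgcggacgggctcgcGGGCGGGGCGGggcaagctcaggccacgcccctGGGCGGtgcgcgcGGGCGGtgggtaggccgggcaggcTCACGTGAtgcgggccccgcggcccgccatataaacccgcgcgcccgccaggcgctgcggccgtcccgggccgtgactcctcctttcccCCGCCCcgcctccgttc
MSMO1: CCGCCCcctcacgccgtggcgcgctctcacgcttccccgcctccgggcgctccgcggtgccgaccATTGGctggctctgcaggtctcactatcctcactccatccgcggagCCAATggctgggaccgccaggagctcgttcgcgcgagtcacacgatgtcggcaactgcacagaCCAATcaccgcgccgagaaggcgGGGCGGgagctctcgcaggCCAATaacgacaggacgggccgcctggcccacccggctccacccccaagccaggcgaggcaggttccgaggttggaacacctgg
EBP: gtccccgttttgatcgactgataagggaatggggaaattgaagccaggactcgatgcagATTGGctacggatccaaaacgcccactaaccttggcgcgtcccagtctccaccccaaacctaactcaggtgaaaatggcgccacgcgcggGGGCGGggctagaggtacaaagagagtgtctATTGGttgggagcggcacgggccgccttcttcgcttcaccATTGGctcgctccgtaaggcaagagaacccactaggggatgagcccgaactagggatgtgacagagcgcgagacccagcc

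Of the 27 members with a window in the RefSeq table, 19 (70.4%) held an NF-Y box, against 39.7% of 27305 genes, and 22 (81.5%) held an Sp1 box, against 48.3%. In the first window of each member, bases after the start were found in a GENCODE transcript of that gene for 23 of the 27. The 27305 genes were not limited to those that passed the count filter, as all members did. Whether the members differ from other expressed genes in these boxes was not tested. The sterol regulatory element was matched in 1 member, SREBF2, 133 bases before the start (0.535% of all genes), and the E-box form in 1 member, INSIG1, 56 bases before the start (1.18% of all genes). No matched box overlapped one of another kind in these 4 runs, and neighbouring Sp1 boxes shared a base in SREBF2 and in INSIG1. MSMO1 held 4 NF-Y boxes, at 185, 139, 76 and 34 bases before the start, and EBP held 3, at 191, 70 and 30 bases before it. A match describes letters only, and a window without one says nothing about binding.

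Library totals ran from 57128519 to 78548789 counts. All 7 hepatocyte markers were expressed, with summed levels of 9247 to 12820 CPM (counts per 1e+06, scaled by TMM) in transfected libraries and 9195 to 11780 CPM in untransfected libraries. In the comparison of transfected with untransfected cells, 1 of the 7 was called higher (APOA1, 0.36 ± 0.12 in log2, adjusted p = 0.0462 in edgeR) and 1 lower. The call of APOA1 held in 3 of the 15 fits that left out 1 library, and that of the lower marker in 15. The lower one, the hepatocyte transcription factor HNF4A, had 121 to 199 CPM in transfected and 221 to 271 CPM in untransfected libraries (-0.66 ± 0.14, adjusted p = 0.00535), and its part in the members' changes was not tested. The leukocyte gene PTPRC had no count in 14 of 15 libraries; 3 of 5 leukocyte markers averaged 1 CPM or more, nearly all of it LYZ, with summed levels of 878.5 to 1251 CPM against 1118 to 1543 CPM. Of 6 fibroblast and endothelial markers 2 reached that level, with sums of 14.7 to 20.72 CPM against 16.19 to 21.36 CPM, and VWF was called lower (-1.24 ± 0.30, adjusted p = 0.0108). On the first principal component (21.1% of the variance) 1 library stood apart from its group: weak-cloaked replicate 1 lay at 51.63, near the untransfected libraries at 68.58 to 70.55, while the other 11 transfected libraries lay between -44.13 and 7.81. Values without that library are given where it changed a call of a member.

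The response to transfection was taken as the average of the 4 transfected groups over untransfected cells. Of the 30 members, 10 rose and 1 fell (36.7%), while 23.1% of the 18380 genes passed the same test, 10.4% upward and 12.7% downward. The increases lay at several points of the pathway, from IDI1 and FDPS through FDFT1 and SQLE to MSMO1, HSD17B7, EBP and DHCR7, together with SREBF2 and the lysosomal cholesterol exporter NPC1. LBR, a sterol reductase of the inner nuclear membrane, was the 1 member that fell. The median log2 fold change of the members was 0.23, against -0.05 over all tested genes. The members' summed level was 3427 ± 89.2 CPM in non-cloaked, 3510 ± 508 CPM in weak-cloaked, 3903 ± 243 CPM in medium-cloaked and 3774 ± 514 CPM in strong-cloaked cells, against 2713 ± 249 CPM in untransfected cells (SD, n = 3 each). Abundant members such as FDFT1 weigh most in this sum, and its rise depended on the TMM scaling. As a share of raw counts the members overlapped, with 0.3218% to 0.4013% in transfected and 0.2839% to 0.3339% in untransfected libraries. Calls were made in edgeR's quasi-likelihood test at a Benjamini-Hochberg adjusted p below 0.05 over all 18380 genes. In bulk RNA, fewer cells that make a transcript and less of it per cell cannot be told apart.

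The split between directions depended on the scaling of the libraries. With scaling by total counts the median over all tested genes moved to -0.28 and that of the members to 0.01. In that setting 5 members were called higher (FDFT1, MSMO1, EBP, DHCR7 and SREBF2) and 6 lower (PMVK, GGPS1, LBR, MBTPS1, MBTPS2 and SOAT1), with 28.9% of all genes called. Among the 15 libraries, leaving out untransfected replicate 2 moved the count most: without it 4 members were called higher (MSMO1, EBP, DHCR7 and NPC1) and LBR lower, with 11.4% of all genes called. LBR, MSMO1, EBP and DHCR7 were called under all 22 alternatives run for this comparison, FDFT1 and SREBF2 under 21, NPC1 under 20, IDI1, FDPS and SQLE under 19 and HSD17B7 under 16.

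**Figure D1:**
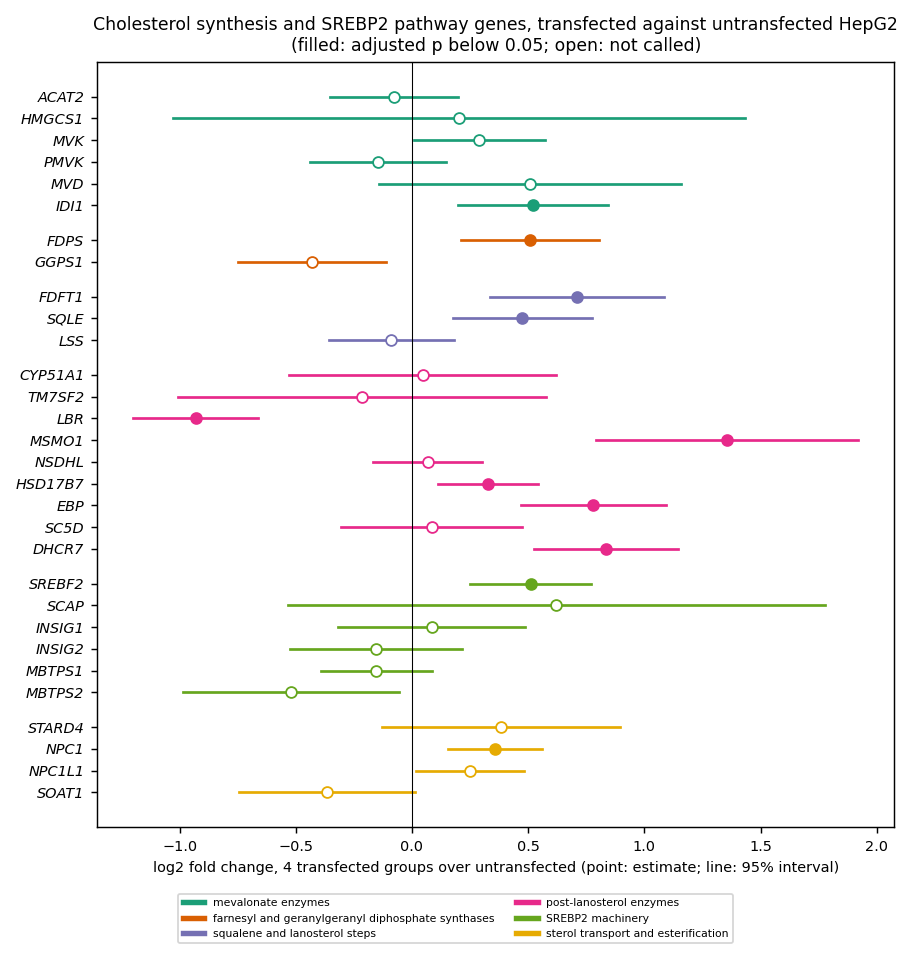
Log2 fold change of each of the 30 members, the 4 transfected groups over the untransfected group, on the x axis, by role of the gene down the y axis. Points are estimates from 15 libraries, lines are 95% intervals, and filled points passed the adjusted threshold; 10 filled points lie right of 0 and LBR, at -0.93, left of it.

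Among the 6 enzymes from acetyl-CoA to isopentenyl diphosphate, IDI1 rose and the other 5 did not pass the test. IDI1, which isomerises isopentenyl diphosphate to dimethylallyl diphosphate (chromosome 10, 1039152 to 1049170 on GRCh38, GENCODE release 29), had 111, 96.7 and 92.3 CPM in non-cloaked, 117, 109 and 89.9 CPM in weak-cloaked, 119, 136 and 139 CPM in medium-cloaked and 99.4, 96.7 and 123 CPM in strong-cloaked cells, against 75.3, 55.2 and 99.7 CPM in untransfected cells. Its lowest transfected library, at 89.9 CPM, was below the highest untransfected one, at 99.7 CPM. IDI1 changed by 0.52 ± 0.15 in log2 (SE), with an adjusted p of 0.0249 in edgeR. The call was lost without untransfected replicate 1 (0.51) or 2 (0.33) and with total-count scaling. Log2 fold changes of the others were -0.08 ± 0.13 for ACAT2 (acetoacetyl-CoA thiolase), 0.29 ± 0.13 for MVK (mevalonate kinase), -0.15 ± 0.14 for PMVK (phosphomevalonate kinase) and 0.51 ± 0.30 for MVD (mevalonate diphosphate decarboxylase). HMGCS1, the cytosolic HMG-CoA synthase, stood at 0.20 with an SE of 0.57, since its untransfected libraries alone ranged over 7.1-fold.

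At the branch point, FDPS and GGPS1 had fold changes of opposite sign. FDPS, which makes farnesyl diphosphate (chromosome 1, 155308748 to 155320666), had 289, 316 and 379.6 CPM in non-cloaked, 289, 264 and 401 CPM in weak-cloaked, 339.7, 315 and 319 CPM in medium-cloaked and 324, 328 and 424 CPM in strong-cloaked cells, against 268, 204 and 229 CPM in untransfected cells. Weak-cloaked replicate 2, at 264 CPM, was the 1 transfected library below the highest untransfected one, at 267.5 CPM. The change of 0.51 ± 0.14 in log2 had an adjusted p of 0.0185 in edgeR. It was not called without untransfected replicate 2 (0.42) or 3 (0.49) or with total-count scaling. FDPS has 8 annotated pseudogenes, so its counts are uncertain. GGPS1, which makes geranylgeranyl diphosphate for protein prenylation, had a log2 fold change of -0.43 ± 0.15 (adjusted p = 0.0511); without weak-cloaked replicate 1 it was -0.48 ± 0.13 (adjusted p = 0.0123) and every other transfected library was below every untransfected one. Its exons overlap those of TBCE on the same strand.

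FDFT1 and SQLE, the steps that commit farnesyl diphosphate to sterols, both rose. FDFT1, squalene synthase (chromosome 8, 11795573 to 11839309), had 781, 675 and 874 CPM in non-cloaked, 628, 759 and 1088 CPM in weak-cloaked, 703, 1118 and 997 CPM in medium-cloaked and 822, 963 and 1132 CPM in strong-cloaked cells, against 559.9, 468 and 574 CPM in untransfected cells. Every transfected library was above every untransfected one. The log2 fold change was 0.71 ± 0.17 (adjusted p = 0.0117), and 0.62 without untransfected replicate 2, where the adjusted p was 0.067. SQLE, squalene epoxidase (chromosome 8, 124998497 to 125022283), had 188, 188 and 152 CPM in non-cloaked, 153, 204 and 213 CPM in weak-cloaked, 201, 228 and 233 CPM in medium-cloaked and 166, 179.9 and 226 CPM in strong-cloaked cells, against 134, 115 and 169 CPM in untransfected cells. The groups overlapped through 3 transfected libraries, which lay below the 169.4 CPM of untransfected replicate 3. The change was 0.47 ± 0.14 (adjusted p = 0.0266 in edgeR). It was not called without untransfected replicate 1 (0.44) or 2 (0.35) or with total-count scaling. LSS, which closes squalene epoxide to lanosterol, had a log2 fold change of -0.09 ± 0.13.

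The 9 enzymes after lanosterol held the largest changes in both directions, with 4 higher and 1 lower. MSMO1, the C4-methyl sterol oxidase (chromosome 4, 165327623 to 165343160), had 249.9, 229 and 213 CPM in non-cloaked, 115, 284 and 310.0 CPM in weak-cloaked, 388, 402 and 406 CPM in medium-cloaked and 184, 214 and 333 CPM in strong-cloaked cells, against 97.2, 91.6 and 127 CPM in untransfected cells. The medium-cloaked libraries were the highest and lay within 388 to 406 CPM; weak-cloaked replicate 1, at 115 CPM, was inside the untransfected range. MSMO1 changed by 1.36 ± 0.26 in log2 (adjusted p = 0.0043), a 2.56-fold increase, and 1.44 ± 0.17 without weak-cloaked replicate 1.

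DHCR7 makes cholesterol from 7-dehydrocholesterol in the last step of the Kandutsch-Russell branch (chromosome 11, 71428193 to 71452868). It had 143, 164 and 191 CPM in non-cloaked, 117, 172 and 200.3 CPM in weak-cloaked, 158, 182 and 182 CPM in medium-cloaked and 164, 173 and 208 CPM in strong-cloaked cells, against 99.9, 96.026 and 91.9 CPM in untransfected cells. All 12 transfected libraries were above all 3 untransfected ones, which lay within 91.9 to 99.9 CPM. The change was 0.84 ± 0.14 in log2 (adjusted p = 0.00247). EBP, the sterol isomerase that shifts the double bond from C8 to C7 (chromosome X, 48521158 to 48528716), had 92.2, 104 and 111 CPM in non-cloaked, 62.3, 91.4 and 111 CPM in weak-cloaked, 106, 119.9 and 110.4 CPM in medium-cloaked and 88.4, 93.9 and 105 CPM in strong-cloaked cells, against 59.8, 50.003 and 63.5 CPM in untransfected cells. Weak-cloaked replicate 1, at 62.3 CPM, was inside the untransfected range and the other 11 transfected libraries were above it. Its log2 fold change was 0.78 ± 0.14 (adjusted p = 0.00359).

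HSD17B7, the 3-ketosteroid reductase of the pathway, changed least among the called enzymes, by 0.33 ± 0.10 in log2 (adjusted p = 0.0312). It averaged 25.85 ± 1.47 CPM in non-cloaked, 24.02 ± 1.19 in weak-cloaked, 26.33 ± 0.944 in medium-cloaked and 26.02 ± 0.936 in strong-cloaked cells, against 20.34 ± 3.18 CPM in untransfected cells (SD, n = 3 each). The call was lost without untransfected replicate 2 (0.25) or 3 (0.27) and without medium-cloaked replicate 2 (0.32) or 3 (0.33). It was also lost with total-count scaling and with no filter on low counts. The lowest log2 fold change over the alternatives was 0.10, and 2 pseudogenes are named after the gene.

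LBR, which encodes a C14 sterol reductase that also binds lamin B and chromatin at the nuclear envelope (chromosome 1, 225401502 to 225428925), had 55.5, 65.1 and 57.2 CPM in non-cloaked, 67.4, 56.5 and 42.032 CPM in weak-cloaked, 73.1, 52.6 and 56.3 CPM in medium-cloaked and 50.8, 52.6 and 54.7 CPM in strong-cloaked cells, against 97.7, 106 and 122 CPM in untransfected cells. Every transfected library, at 73.1 CPM or less, was below every untransfected one, at 97.7 CPM or more. The log2 fold change of -0.93 ± 0.12 (adjusted p = 0.000762) is a level of 0.525 of that in untransfected cells. TM7SF2, the other C14 sterol reductase, was the lowest member, at 3.51 CPM per kb of its longest transcript in transfected cells and 3.76 CPM per kb in untransfected cells, where LBR had 14.95 and 28.46 CPM per kb. The log2 fold change of TM7SF2 was -0.22 with an SE of 0.37. CYP51A1, the lanosterol demethylase (0.05 ± 0.27), NSDHL, the C4 decarboxylase (0.07 ± 0.11), and SC5D, the C5 desaturase (0.08 ± 0.18), did not pass the test. CYP51A1 shares 2844 of its 3584 exon bases with another annotated gene on the same strand and has 3 pseudogenes, so its counts are uncertain. On the opposite strand, ACAT2, HMGCS1, MVK, IDI1, GGPS1, FDPS, FDFT1, LSS, CYP51A1, SREBF2, STARD4 and NPC1 share exon bases with other genes. The overlap with each such gene ranged from 122 bases (in LSS) to 1458 bases (in ACAT2), with 217 in FDFT1 and 280 in SREBF2. Whether the counting used strand is not given in the sources used here.

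**Figure D2:**
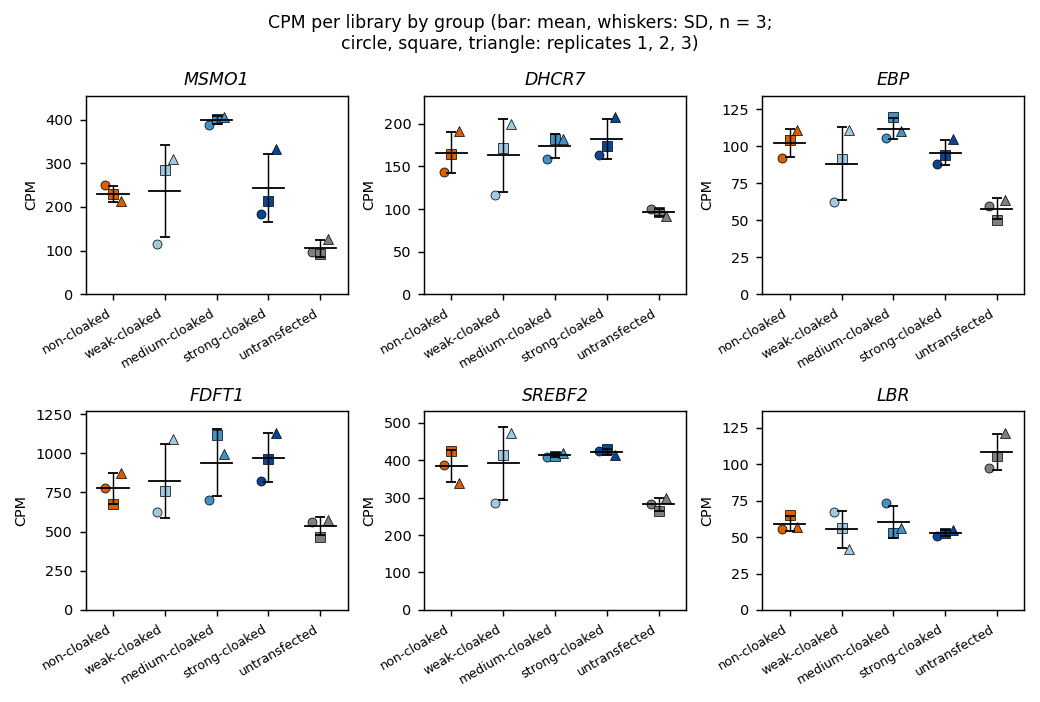
CPM per library (y axes, from 0) of 6 called members by group (x axis), with the mean and SD of 3 replicates. All transfected libraries of DHCR7 and FDFT1 lie above and those of LBR below the untransfected ones, and weak-cloaked replicate 1 (circle) falls in the untransfected range for MSMO1, EBP and SREBF2.

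Over all 30 members, all 12 transfected libraries were above all 3 untransfected ones in 3 (FDFT1, DHCR7 and NPC1; 5.12% of all tested genes) and below them in 1 (LBR; 5.74%). Without weak-cloaked replicate 1 these counts were 7, with MSMO1, HSD17B7, EBP and SREBF2 added (10.0% of all genes), and 2, with GGPS1 added (11.8%). These positions are in TMM-scaled CPM and were not worked out with total-count scaling. For 5 of the 11 called members weak-cloaked replicate 1 lay inside the untransfected range. Its part in the spread of the weak-cloaked group was not tested beyond leaving it out.

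Of the SREBP2 machinery, SREBF2 alone passed the test. SREBF2 (chromosome 22, 41833079 to 41907308) had 387, 424 and 339 CPM in non-cloaked, 285, 415 and 473 CPM in weak-cloaked, 409, 412 and 418 CPM in medium-cloaked and 425, 428 and 413 CPM in strong-cloaked cells, against 282, 265.0 and 299.9 CPM in untransfected cells. Weak-cloaked replicate 1 lay inside the untransfected range and the other 11 transfected libraries lay above it. SREBF2 changed by 0.51 ± 0.12 in log2 (adjusted p = 0.0105) and 0.55 ± 0.07 without weak-cloaked replicate 1; it was 0.47 without untransfected replicate 2, where the adjusted p was 0.0571.

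INSIG1, whose protein retains SCAP in the endoplasmic reticulum and whose gene is itself an SREBP2 target (chromosome 7, 155297776 to 155310235), had 42.5, 43.1 and 46.9 CPM in non-cloaked, 35.5, 52.7 and 48.5 CPM in weak-cloaked, 53.1, 69.2 and 55.5 CPM in medium-cloaked and 47.952, 64.8 and 55.4 CPM in strong-cloaked cells, against 42.9, 32.1 and 68.7 CPM in untransfected cells. The untransfected libraries spanned nearly the whole range of the transfected ones. The log2 fold change was 0.09 ± 0.19 (95% interval -0.32 to 0.49; adjusted p = 0.783), turning to -0.14 with total-count scaling and to -0.13 without untransfected replicate 2. INSIG2, the less sterol-dependent of the INSIG genes, had 124, 104 and 93.8 CPM in non-cloaked, 152, 93.9 and 103 CPM in weak-cloaked, 104, 108 and 127 CPM in medium-cloaked and 78.2, 132 and 95.7 CPM in strong-cloaked cells, against 97.8, 147 and 121 CPM in untransfected cells. The groups overlapped, and the log2 fold change of -0.15 ± 0.17 (adjusted p = 0.561) turned to 0.12 with offsets for transcript length and GC content.

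SCAP, the escort protein of SREBP2 (chromosome 3, 47413694 to 47477126), had 18.4, 84.4 and 95.2 CPM in non-cloaked, 22.4, 14.3 and 91.6 CPM in weak-cloaked, 25.5, 21.5 and 28.2 CPM in medium-cloaked and 42.1, 68.8 and 97.6 CPM in strong-cloaked cells, against 33.4, 30.2 and 28.2 CPM in untransfected cells. The 3 medium-cloaked and 3 untransfected libraries lay close together, the non- and weak-cloaked groups held libraries on either side of that range, up to 6.4-fold apart in weak-cloaked cells, and all 3 strong-cloaked libraries were above it. The fold change of 0.62 in log2 therefore had an SE of 0.53 (95% interval -0.53 to 1.78; adjusted p = 0.436). MBTPS1, the first protease to cut SREBP2, had a log2 fold change of -0.15 ± 0.11. MBTPS2, the second, had -0.52 ± 0.22 (adjusted p = 0.0984); without weak-cloaked replicate 1 it was called lower, at -0.60 ± 0.19 (adjusted p = 0.0261). The exons of MBTPS2 overlap those of YY2.

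In sterol transport, NPC1 rose and the other 3 members did not pass the test. NPC1, which moves cholesterol out of lysosomes (chromosome 18, 23506184 to 23586898), had 97.7, 117 and 96.013 CPM in non-cloaked, 92.3, 113 and 124 CPM in weak-cloaked, 110.4, 114 and 112 CPM in medium-cloaked and 113, 120.4 and 116 CPM in strong-cloaked cells, against 80.2, 89.4 and 88.9 CPM in untransfected cells. In TMM-scaled CPM all 12 transfected libraries were above all 3 untransfected ones. The change was 0.36 ± 0.09 in log2 (adjusted p = 0.0168 in edgeR). It was not called without untransfected replicate 1 (0.31) or with total-count scaling, and its lowest value over the 22 alternatives was 0.13. NPC1 shares 604 exon bases with RMC1 on the opposite strand. NPC1L1, the transporter that takes up sterols at the canalicular and intestinal surface, had 39.2, 42.9 and 39.9 CPM in non-cloaked, 39.1, 34.6 and 42.6 CPM in weak-cloaked, 40.3, 35.6 and 36.1 CPM in medium-cloaked and 44.5, 42.7 and 37.1 CPM in strong-cloaked cells, against 38.3, 33.7 and 27.7 CPM in untransfected cells. Its groups overlapped through untransfected replicate 1, and the change was 0.25 ± 0.11 (adjusted p = 0.112). STARD4, a cytosolic sterol carrier, stood at 0.38 ± 0.24 (adjusted p = 0.27) and SOAT1, which esterifies cholesterol for storage, at -0.37 ± 0.18 (adjusted p = 0.15).

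**Figure D3:**
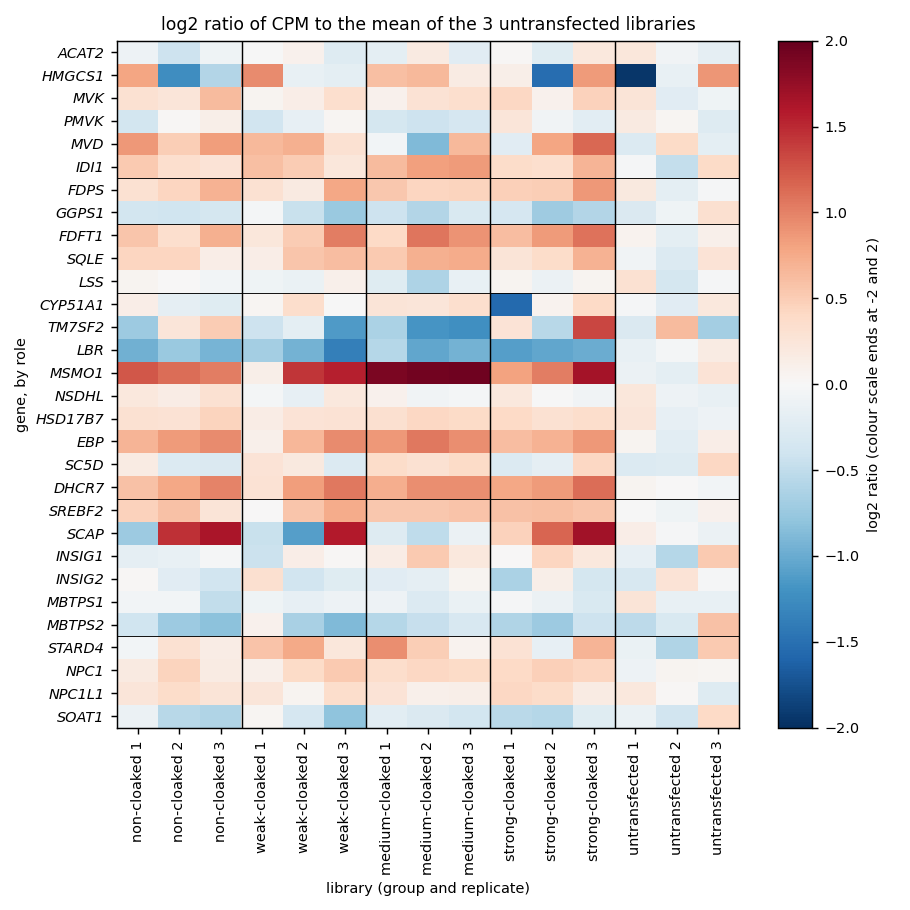
Log2 ratio of CPM in each library to the mean of the 3 untransfected libraries (colour), for the 30 members by role (y axis) and the 15 libraries by group (x axis). The rows of MSMO1, EBP, DHCR7, FDFT1 and SREBF2 are red in the transfected libraries, palest in weak-cloaked replicate 1, and that of LBR is blue.

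Set against untransfected cells one group at a time, the groups shared the same 3 untransfected libraries, so their results are not independent. Non-cloaked cells had 3 members higher (3.84% of all genes) and 1 lower (2.66%; 6.50% called in all). Weak-cloaked cells had 1 higher (2.11%) and 1 lower (1.19%; 3.29% in all). Medium-cloaked cells had 8 higher (6.25%) and 1 lower (7.49%; 13.7% in all), and strong-cloaked cells 7 higher (7.99%) and 1 lower (7.11%; 15.1% in all). DHCR7 rose and LBR fell in all 4 groups, MSMO1 and EBP also rose in non-cloaked, medium-cloaked and strong-cloaked cells, and FDFT1, SREBF2 and NPC1 did so in medium-cloaked and strong-cloaked cells. Without weak-cloaked replicate 1 these 5 members were called higher in weak-cloaked cells too, with log2 fold changes of 1.49 ± 0.21 for MSMO1 (adjusted p = 0.00079), 0.80 ± 0.13 for EBP (0.00162), 0.78 ± 0.21 for FDFT1 (0.0187), 0.65 ± 0.10 for SREBF2 (0.00104) and 0.45 ± 0.10 for NPC1 (0.00767), against 1.17 ± 0.30, 0.61 ± 0.17, 0.63 ± 0.21, 0.47 ± 0.15 and 0.35 ± 0.12 with it. That library was picked out after its nearness to the untransfected libraries was seen, so leaving it out widens this contrast. Without it 21.3% of all genes were called in weak-cloaked cells, against 3.29% with it. With all libraries, IDI1 and SQLE were called in medium-cloaked cells and FDPS in strong-cloaked cells. Log2 fold changes of the members with fewer calls were positive in all 4 groups: FDFT1 stood at 0.54 ± 0.21 in non-cloaked, 0.63 ± 0.21 in weak-cloaked, 0.81 ± 0.21 in medium-cloaked and 0.86 ± 0.21 in strong-cloaked cells. SREBF2 stood at 0.44, 0.47, 0.55 and 0.58 in the same order, each with an SE of 0.15. A call in 1 group and not in another does not show a difference between them, which the comparisons with non-cloaked cells test directly.

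These counts moved with single libraries, and so did the share of all genes called. In non-cloaked cells leaving out non-cloaked replicate 2 or 3 ended all member calls (0.631% and 0.979% of all genes called), and 1 or 2 were left when an untransfected replicate was left out (1.25% to 2.01%). In weak-cloaked cells the count was 9 without weak-cloaked replicate 1 (21.3% of all genes called), with SQLE higher and GGPS1 lower beside the 5 members above, DHCR7 and LBR. It was 0 without replicate 2 (0.604%), and 1 without replicate 3 or with 1 untransfected replicate left out (0.669% to 2.10%). It was 4 or 5 in medium-cloaked cells without medium-cloaked replicate 2 or 3 or untransfected replicate 1 or 2 (4.16% to 6.07%). In strong-cloaked cells it was 2 or 3 without strong-cloaked replicate 2 or 3 or untransfected replicate 2 (3.86% to 5.05%).

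The effect of cloaking was read from each cloaked group over non-cloaked cells. No member was called in weak-cloaked (0.00544% of all genes called), medium-cloaked (0%) or strong-cloaked cells (0%), nor in an F test over the 4 transfected groups (0.00544%). DESeq2 likewise called no member in these 4 tests. At an unadjusted p below 0.05, edgeR had 0, 2 and 0 members in the weak-, medium- and strong-cloaked comparisons, where 721, 1746 and 663 of all genes passed, and 2 members in the F test (TM7SF2 at an unadjusted p of 0.0306 and MSMO1 at 0.0483, with an adjusted p of 0.992 for each; 753 of all genes passed). The 95% interval of the log2 fold change lay within a 2-fold change either way for 26 members in weak-cloaked, 23 in medium-cloaked and 27 in strong-cloaked cells.

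The members of smallest p were MSMO1 and TM7SF2 in medium-cloaked cells. MSMO1 averaged 398.8 ± 9.64 CPM in medium-cloaked and 230.7 ± 18.4 CPM in non-cloaked cells (SD, n = 3 each), a log2 fold change of 0.79 ± 0.30 (95% interval 0.14 to 1.44; unadjusted p = 0.0208 and adjusted p = 0.487 in edgeR). Its libraries did not overlap between these groups, and its log2 fold change was 0.03 ± 0.30 in weak-cloaked cells (0.36 ± 0.21, adjusted p = 0.778, without weak-cloaked replicate 1) and 0.08 ± 0.30 in strong-cloaked cells. TM7SF2 averaged 3.98 ± 0.951 CPM in medium-cloaked and 8.41 ± 3.30 CPM in non-cloaked cells, with 1 non-cloaked library inside the medium-cloaked range (-1.08 ± 0.48; adjusted p = 0.512). The next was IDI1, at 131.3 ± 10.5 CPM in medium-cloaked and 99.93 ± 9.62 CPM in non-cloaked cells (0.39 ± 0.18; adjusted p = 0.526). SCAP had the lowest log2 fold change, -1.40 ± 0.66, with a 95% interval of -2.82 to 0.03 (adjusted p = 0.534). Libraries of the medium-cloaked and non-cloaked groups did not overlap for 8 of 30 members, against 22.2% of all genes, and the strong-cloaked and weak-cloaked counts were 2 and 1, against 10.0% and 6.88%. For SREBF2 the interval of the log2 fold change was -0.29 to 0.35 in weak-cloaked (an estimate of 0.03, and 0.21 ± 0.10 without weak-cloaked replicate 1), -0.21 to 0.43 in medium-cloaked and -0.18 to 0.46 in strong-cloaked cells.

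**Figure D4:**
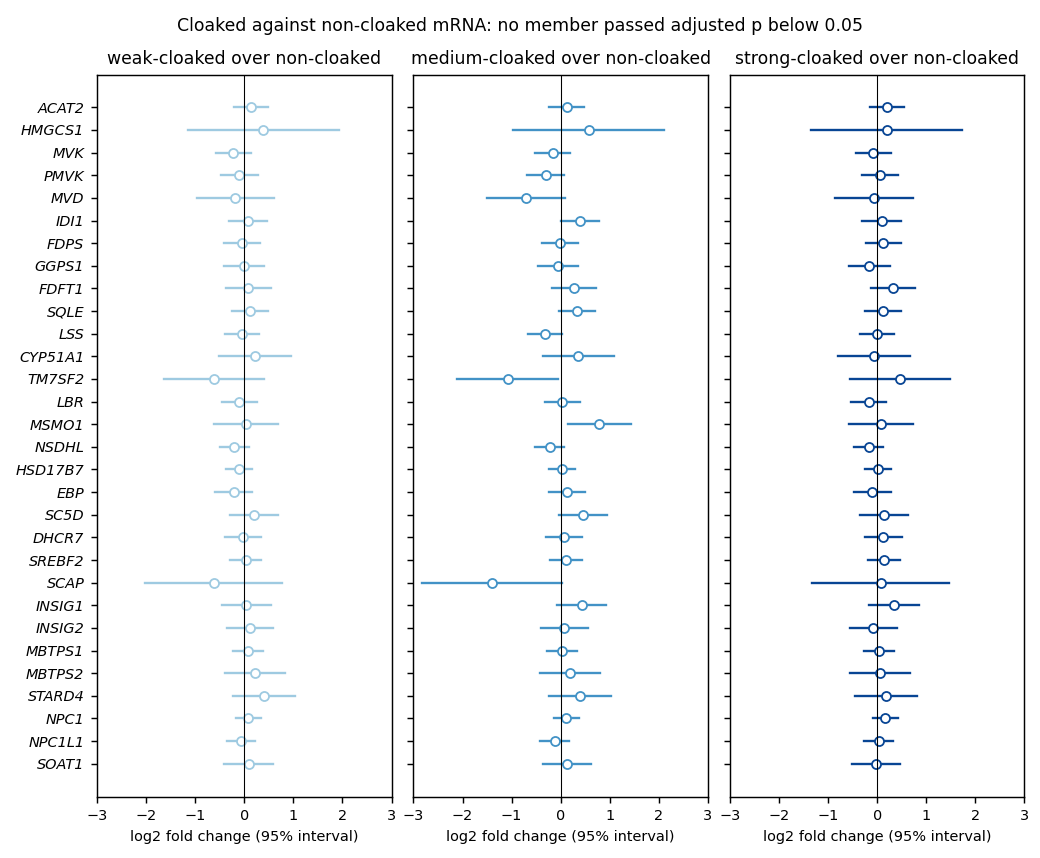
Log2 fold change (x axes, with 95% intervals) of each member (y axis) in weak-, medium- and strong-cloaked over non-cloaked cells. No member passed the adjusted threshold; in medium-cloaked cells the intervals of MSMO1, at 0.79, and TM7SF2, at -1.08, lie off 0, and SCAP, at -1.40, has a wide interval that reaches 0.03.

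Some members varied widely between replicates, and the share that did was close to that of all genes. Of the 29 members averaging 10 CPM or more, 2 (6.9%) differed 4-fold or more between replicates of a group, HMGCS1 and SCAP, against 5.92% of all genes at that level. HMGCS1 had 137, 33.3 and 52.6 CPM in non-cloaked, 152, 70.976 and 68.7 CPM in weak-cloaked, 119.5, 123 and 88.7 CPM in medium-cloaked and 85.5, 27.5 and 142 CPM in strong-cloaked cells, against 20.4, 71.030 and 145 CPM in untransfected cells. The medium-cloaked libraries lay within 88.7 to 123 CPM, and each of the other 4 groups spanned a wider range. CYP51A1 was at 32.0 CPM in strong-cloaked replicate 1 and between 79.6 and 124 CPM in the other 14 libraries. TM7SF2 ranged from 5.37 to 19.8 CPM within strong-cloaked cells, and MVD from 20.2 to 58.5 CPM within medium-cloaked cells. For 21 of 30 members the ratio stayed below 2 in every group.

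**Figure D5:**
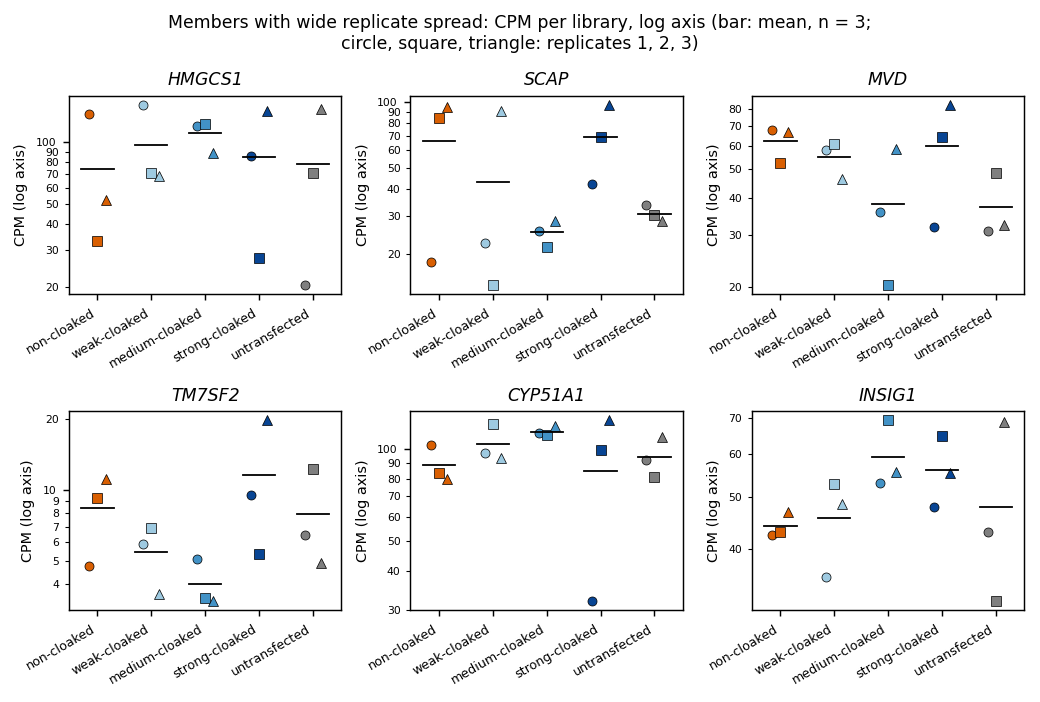
CPM per library (log y axes) by group (x axis) for HMGCS1, SCAP, MVD, TM7SF2, CYP51A1 and INSIG1, with the mean of 3 replicates as a bar. HMGCS1 spans 20.4 to 145 CPM among untransfected libraries alone, and CYP51A1 has 1 low library, strong-cloaked replicate 1.

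Levels were compared between genes per kb of the longest annotated transcript. In untransfected cells FDFT1 was highest at 201 ± 21.7 CPM per kb, followed by FDPS at 116 ± 15.9, and SREBF2, SQLE and MSMO1 at 49.5 ± 3.06, 47.1 ± 9.28 and 46.4 ± 8.43, which did not differ beyond their spread. In transfected cells MSMO1 stood at 122 CPM per kb, behind FDFT1 at 330.2 and FDPS at 164.8 and above SREBF2 at 70.6, SQLE at 65.7 and DHCR7 at 64.3. The members' median transcript length of 3182.5 nt and GC content of 49.36% lay next to those of all tested genes, 3180.5 nt and 49.38%. Across all genes the fold change varied with these features: its median was 0.16 in the shortest and -0.22 in the longest 25% of transcripts, and 0.13 in the highest and -0.30 in the lowest 25% by GC content. LBR lay above the median length of all tested genes, at 3812 nt, and below their median GC content, at 37.8%. With offsets for length and GC content it was still called lower, beside PMVK, with 11 members higher (23.4% of all genes called).

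Among 12 further genes of SREBP regulation, 2 rose and 0 fell in the pooled comparison, where 10.4% of all genes were called higher and 12.7% lower. SREBF1, which encodes SREBP1, changed by 0.75 ± 0.22 in log2 (adjusted p = 0.0288) and NFYA, a subunit of the NF-Y co-factor, by 0.55 ± 0.17 (adjusted p = 0.0303). With total-count scaling the list had 0 higher and 2 lower (28.9% of all genes called), and without weak-cloaked replicate 1 it had 3 and 2 (31.5%). Both calls were lost without untransfected replicate 1 or 2, that of SREBF1 also without replicate 3.

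Of 13 accessory and other sterol-responsive genes 4 rose and 3 fell (10.4% and 12.7% of all genes). POR, the electron donor of CYP51A1 and SQLE, changed by 1.01 ± 0.27 (adjusted p = 0.0194), but not past the threshold without untransfected replicate 1 or 3 (0.86 in each). ALDOC, a glycolytic aldolase, changed by 0.70 ± 0.12 (adjusted p = 0.00209) and was called in every alternative. PCYT2, of phosphatidylethanolamine synthesis, changed by -0.50 ± 0.13 (adjusted p = 0.0142), and by -0.34 without untransfected replicate 1, where it was not called. Without that library the list had 2 members higher and 0 lower (13.1% of all genes called).

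Of 11 further genes of sterol transport and storage 4 rose and 1 fell, and of 10 genes of the non-sterol isoprenoid branch 0 rose and 3 fell, again beside 10.4% of all genes higher and 12.7% lower. NPC2, the lysosomal partner of NPC1, changed by 0.51 ± 0.12 (adjusted p = 0.0105; 0.37 and not called without untransfected replicate 2). STARD10, a lipid transfer protein, changed by 0.75 ± 0.25 (adjusted p = 0.045) and was not called in 11 of the 15 fits that left out 1 library. The transport list had 0 higher and 1 lower without untransfected replicate 2 (11.4% of all genes called), and 1 higher and 2 lower with total-count scaling (28.9%). The fall of GRAMD1C, a sterol transporter at membrane contacts, rested on untransfected replicate 3: it had 14.1 CPM there and between 1.91 and 4.09 CPM in the 14 other libraries, and its log2 fold change of -1.14 ± 0.37 (adjusted p = 0.0396) was 0.10 without that library. FNTB, a farnesyltransferase subunit, changed by -1.79 ± 0.46 (adjusted p = 0.0163), PDSS1, of ubiquinone synthesis, by -1.16 ± 0.37 (adjusted p = 0.0378) and PGGT1B, a subunit of a prenyl transferase, by -0.69 ± 0.20 (adjusted p = 0.0248). Without untransfected replicate 1 or 2 none of these 3 was called, and without replicate 3 FNTB alone was. PDSS1 was not called in 7 of the 15 fits that left out 1 library, and PGGT1B moved to -0.24 with the length and GC offsets.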

How the data were processed

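RNA integrity was checked (RIN cutoff 7.0) and strand-specific poly(A) libraries of the 15 samples were read as 150 bp paired ends on a NovaSeq, as the labels' protocols state. The authors deposited 1 matrix of raw counts per gene symbol. HISAT2, HTSeq, DESeq2 1.46.0, R 4.4.2 and GRCh38 are named in the submitters' processing notes; for annotation and strand setting of the counting: not given in the sources used here, which leaves overlapping genes uncertain.

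The tests used edgeR 4.0.16 (R 4.3.3, limma 3.58.1): filterByExpr at its defaults (minimum count 10), TMM scaling, robust dispersions (biological coefficient of variation 0.344) and a quasi-likelihood fit with 1 mean per group over all 15 libraries. At these depths the spread between replicates, pooled over genes, exceeded counting error. SEs come from the fold change and its F statistic. Replicate pairs differed by more than sampling noise (chi-square per gene 79.03 to 248.1). Alternatives were DESeq2 1.42.0, RLE and total-count scaling, no filter, the replicate number as a block, the compared groups alone, length and GC offsets and leaving out each library. GENCODE release 29 annotated 18338 of the tested genes.

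Members and lists were chosen with earlier results of these data known. Every member is accounted for; 1 gene of a further list is not reported here. Values in every library are given for the 10 called members of largest change and for SREBF2, INSIG1, INSIG2, SCAP and NPC1L1; up to 3 called genes are named from each further list and the 3 of smallest p where cloaking gave no call. HMGCS1, CYP51A1, TM7SF2 and MVD were singled out for spread after their values were seen.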

Additional observations from a re-analysis of the deposited data

How the results depend on the processing

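Against untransfected cells, counts of called members stayed within 1.5 times the values in the text in 54 of 78 recalculations; among transfected groups the count was 0 throughout. Of the log2 fold changes of named members, 306 of 330 kept their direction and their side of the threshold. Non-cloaked against untransfected cells had 7 calls with DESeq2 (16.1% of all genes called), and 0 to 3 when 1 library was left out (0.631% to 5.98%). Weak-cloaked against untransfected cells had 4 calls with length and GC offsets (5.89%), 5 with those offsets and the replicate block (7.68%), 0 in a fit of the compared groups alone (0.023%), 6 with DESeq2 (10.9%), and 0 to 9 when 1 library was left out (0.604% to 21.3%). Leaving out 1 library gave 4 to 8 calls in medium-cloaked cells (4.16% to 11.1%), 2 to 7 in strong-cloaked cells (3.86% to 9.34%) and 5 to 13 for the pooled comparison (11.4% to 31.5%), and 0 in every comparison among transfected groups. INSIG1 turned to -0.14 with total-count scaling and ranged from -0.13 (without untransfected replicate 2) to 0.43 (without untransfected replicate 3). INSIG2 turned to 0.12 with length and GC offsets and to 0.13 with those offsets and the replicate block, and ranged from -0.29 (without untransfected replicate 1) to 0.0042 (without untransfected replicate 2). The counts of members without overlap between transfected and untransfected libraries became 7 above and 2 below without weak-cloaked replicate 1, an alternative chosen after seeing the data. Apart from the left-out libraries, the cause of these shifts was not tested.

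Signs of pairing by replicate number were weak: 2 of 30 correlations between same-numbered libraries of different groups were above 0.1 (range -0.06 to 0.17). Of the 15 libraries, 7 correlated best with their own number. No chance level was worked out for these counts, so they cannot exclude pairing. With the replicate block the counts against untransfected cells were 4 in non-cloaked (7.75% of all genes called), 3 in weak-cloaked (4.44%), 10 in medium-cloaked (14.5%) and 8 in strong-cloaked cells (16.1%). The pooled comparison had 11 (23.4%), and comparisons among transfected groups had 0 (0% to 0.00544%). Pooled over genes, the spread between replicates exceeded counting error, but this was not checked for each member. With 3 libraries a group, the median 95% interval of a member reached 0.39 in log2 to either side.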
